A study of Mus musculus with 51 samples.

Results

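Lcn2, Serpina3n, C3, Ccl2, Cxcl1, Cxcl10, Nfkbia, Icam1, Vcam1 and Bcl3 are 10 genes associated with reactive and inflamed astrocytes, taken by name from the 22359 protein-coding genes of the mm9 annotation. All peaks of the 6 deposited lists that overlapped a gene body or the 10 kb on either side were collected, which gave 273 of 803595 peaks. The cells were astrocytes made in culture from C57/BL-6 mouse embryonic stem cells. Astrogliogenic neural precursors (aNPC), kept in N2 medium with 10 ng/ml each of EGF and FGF-2, were compared with early astrocytes (eA) after 1 day and late astrocytes (lA) after 5 days in DMEM with 1% FBS and LIF. The acetylation mark H3K27ac and the methylation mark H3K4me1 were mapped by ChIP-seq at each stage, and the 2 samples of each stage and mark were merged into 1 list. Serum and LIF were therefore present in eA and lA and not in the aNPC medium, so stage and medium cannot be told apart here.

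Reactive astrocytes are the form that astrocytes take after injury, infection or exposure to cytokines. They secrete acute-phase and complement proteins, call in leukocytes with chemokines and display adhesion molecules. Many of these genes respond to NF-κB, a transcription factor held in the cytoplasm by inhibitors such as the product of Nfkbia and released when cytokine or pathogen receptors signal. STAT factors act downstream of LIF-family cytokines and interferons. H3K27ac marks active promoters and enhancers, whereas H3K4me1 marks enhancers whether or not they are active, and an H3K4me1 site without H3K27ac is often described as primed.

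With 1 merged list for each stage and mark there was no replicate error and no test, and a peak missing from a list does not show that the mark was absent. Peak strength is given as the −log10 q-value of the peak caller, which was not compared between lists because their sequencing depth was unknown. The share of a list's peaks with a lower value is given to place a peak within its own list. The lists differ in length, so neither this share nor the −log10 q measures a change between stages. A cell culture is also a mixture, and a mark in fewer cells cannot be told apart from less of the mark in each cell. Peaks had been called without an input sample. The lists held between 79413 (H3K27ac in aNPC) and 208333 peaks (H3K4me1 in lA). The 12 astrocyte markers checked, among them Gfap and Aqp4, had a promoter H3K27ac peak at 8 genes in aNPC and at 9 in both eA and lA. Of 12 microglia markers, 2 had one at each stage, and of 10 endothelial markers, 1, 2 and 2 did. The part of other cell types in the peaks below was not tested.

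The DNA just before the start sites was read for motifs of the factors named above and a few others. The 250 bases before the main start site were read from the mm9 assembly (NCBIM37), and 7 promoters are printed because they hold an NF-κB match or because, as at Lcn2 and Bcl3, promoter H3K27ac was called in eA or lA and not in aNPC. Each is written 5′ to 3′ on the gene's strand, with matches to the NF-κB, ISRE, STAT, AP-1 and C/EBP motifs in capitals.
Serpina3n, chr12:105644689-105644938, plus strand: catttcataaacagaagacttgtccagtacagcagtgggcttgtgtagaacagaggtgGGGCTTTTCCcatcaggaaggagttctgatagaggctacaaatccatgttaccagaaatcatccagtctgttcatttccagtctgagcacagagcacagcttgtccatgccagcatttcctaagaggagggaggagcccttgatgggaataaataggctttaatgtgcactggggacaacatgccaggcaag
Lcn2, chr2:32243318-32243567, minus strand: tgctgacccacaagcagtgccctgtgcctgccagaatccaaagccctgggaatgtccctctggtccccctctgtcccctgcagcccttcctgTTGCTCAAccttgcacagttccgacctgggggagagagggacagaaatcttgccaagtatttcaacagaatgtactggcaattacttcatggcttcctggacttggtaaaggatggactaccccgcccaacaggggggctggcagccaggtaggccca
Ccl2, chr11:81848823-81849072, plus strand: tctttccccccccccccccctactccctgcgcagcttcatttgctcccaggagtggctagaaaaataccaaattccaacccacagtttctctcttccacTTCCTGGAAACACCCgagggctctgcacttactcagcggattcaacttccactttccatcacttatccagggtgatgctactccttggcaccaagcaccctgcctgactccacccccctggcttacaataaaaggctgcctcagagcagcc
Cxcl1, chr5:91320017-91320266, plus strand: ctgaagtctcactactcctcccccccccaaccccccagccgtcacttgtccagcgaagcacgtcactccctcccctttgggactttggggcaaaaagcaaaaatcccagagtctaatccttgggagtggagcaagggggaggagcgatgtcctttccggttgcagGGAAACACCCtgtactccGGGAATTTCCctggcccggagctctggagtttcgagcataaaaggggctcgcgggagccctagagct
Cxcl10, chr5:92777909-92778158, minus strand: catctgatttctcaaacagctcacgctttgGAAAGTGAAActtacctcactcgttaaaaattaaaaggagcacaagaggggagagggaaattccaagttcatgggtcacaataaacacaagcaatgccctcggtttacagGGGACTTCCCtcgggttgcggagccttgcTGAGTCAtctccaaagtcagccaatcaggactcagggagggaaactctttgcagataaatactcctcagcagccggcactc
Nfkbia, chr12:56593635-56593884, minus strand: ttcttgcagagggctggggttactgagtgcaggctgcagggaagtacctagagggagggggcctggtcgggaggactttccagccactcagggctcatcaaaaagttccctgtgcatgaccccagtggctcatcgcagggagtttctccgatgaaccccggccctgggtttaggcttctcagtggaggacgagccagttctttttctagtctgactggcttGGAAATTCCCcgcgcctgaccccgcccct
Bcl3, chr7:20408120-20408369, minus strand: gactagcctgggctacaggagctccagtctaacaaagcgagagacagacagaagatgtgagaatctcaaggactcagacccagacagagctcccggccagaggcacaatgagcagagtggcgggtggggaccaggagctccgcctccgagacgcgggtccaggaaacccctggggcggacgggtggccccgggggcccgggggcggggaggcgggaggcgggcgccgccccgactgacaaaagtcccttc

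The NF-κB motif was searched as GGG, any 2 bases, then TTTCC or TTCCC, on both strands. It occurred in 5 of the 10 promoters, those of Serpina3n, Ccl2, Cxcl1, Cxcl10 and Nfkbia, and in 2.82% of all 22359 promoters of the same length. Cxcl1 had 2 matches, beginning 85 and 67 bases before the start site, and the Nfkbia match began 29 bases before it. The Cxcl10 promoter also held the only interferon-type match (ISRE; GAAA, any 2 bases, GAAA) among the 10, beginning 220 bases before the start site, against 3.41% of all promoters. STAT matches (TTCNNNGAA) were found before Ccl2 and Icam1 and in 6.80% of all promoters, and the Ccl2 STAT match overlapped its NF-κB match. C/EBP matches (TTGCNNAA) lay before Lcn2, C3 and Vcam1 and in 8.99% of all promoters. AP-1 matches (TGANTCA) lay before Cxcl10 and Vcam1 and in 5.94%, a RUNX match (TGTGGT) lay before none of the 10 and in 12.6%, and the Bcl3 promoter held none of the 7 motifs. These genes are known for their response to NF-κB, so the count describes a group chosen for a related property, and a match is not a measured binding site. Only exact matches to the patterns were counted, so a promoter without one may still hold a site that differs from the pattern.

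**Figure D1:**
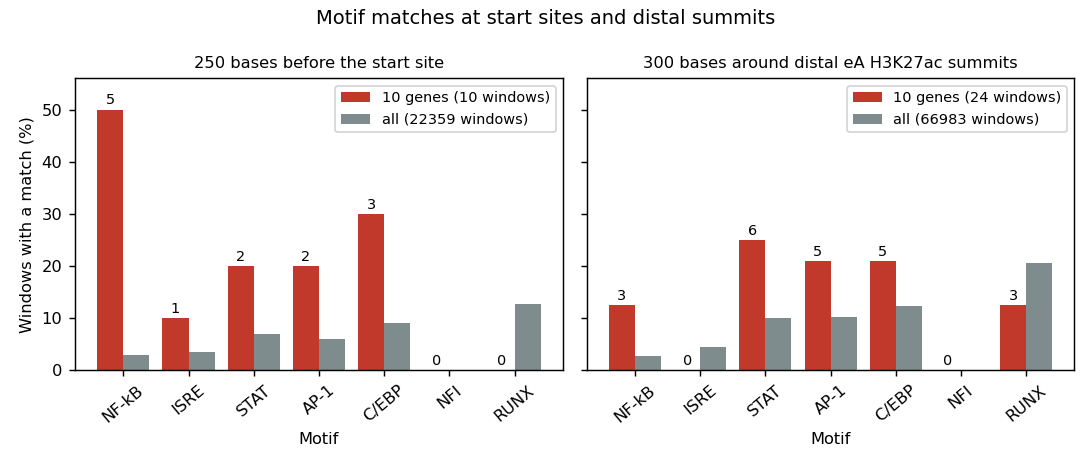
Share of windows (%) with a match to each of 7 motifs, in the 250 bases before the start site (left) and in the 300 bases around distal eA H3K27ac summits (right), for the 10 genes (red, number of windows above the bar) and for all coding genes or all distal peaks of the list (grey). The NF-κB motif was in 5 of 10 promoters against 2.82% of all, and the STAT motif in 6 of 24 distal windows against 10.0%.

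A promoter was taken as 1 kb before to 100 bp after any coding start site. By this measure 3 of the 10 promoters overlapped an aNPC H3K27ac peak, 6 an eA peak and 4 an lA peak, where 50.6%, 53.2% and 48.2% of all coding genes had one. For H3K4me1 the counts were 7, 8 and 8 of 10, where 55.4%, 53.6% and 52.7% of all genes had a promoter peak. The 10 genes fell into 4 groups by promoter H3K27ac. Lcn2, Serpina3n and Bcl3 had a promoter peak in eA or lA and none in aNPC, a pattern seen at 5.20% of all genes. Ccl2 had one in aNPC and eA and none in lA, as did 3.74% of all genes. Nfkbia and Vcam1 had one at all 3 stages, as did 45.2% of all genes. C3, Cxcl1, Cxcl10 and Icam1 had none at any stage, and neither did 44.2% of all genes.

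**Figure D2:**
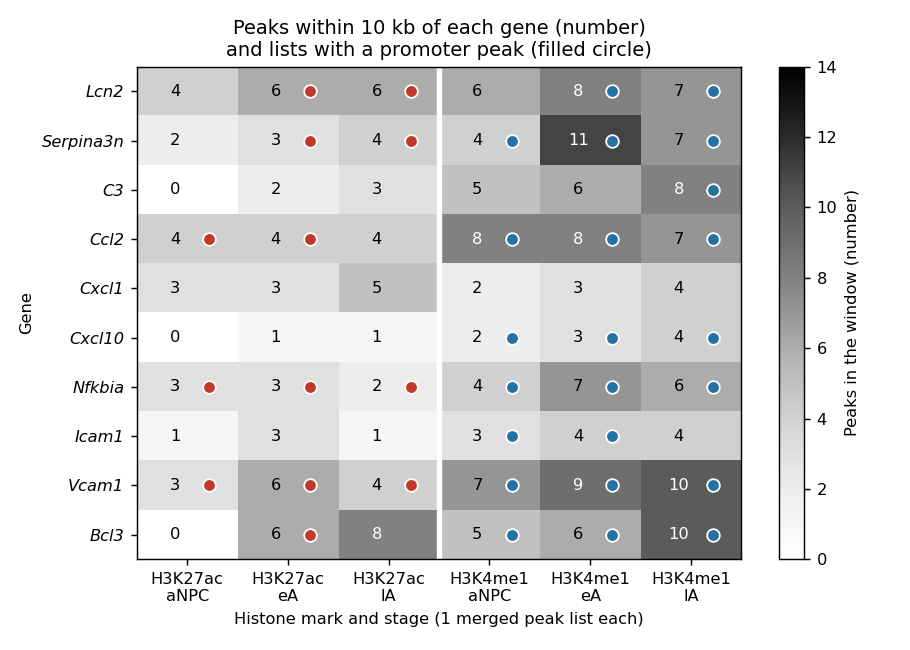
Number of peaks within 10 kb of each gene (rows) in each list (columns), with the shade following the number, and a filled circle where a peak overlapped a promoter. The aNPC column of H3K27ac reads 0 for C3, Cxcl10 and Bcl3, and their later columns read between 1 and 8.

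Counted over the whole 10 kb windows, at least 1 H3K27ac peak was found at 7 of 10 genes for aNPC and at all 10 for the later stages, against 69.5%, 71.7% and 70.5% of all genes. H3K4me1 peaks lay at all 10 genes at every stage, against 80.0%, 81.0% and 81.4% of all genes. Over the 10 windows the H3K27ac peaks numbered 20 (aNPC), 37 (eA) and 38 (lA), and the H3K4me1 peaks 46, 65 and 67. With the lists of each mark cut to equal length, these counts were 20, 37 and 32 for H3K27ac and 46, 56 and 53 for H3K4me1. For both marks the lA count then lay below that of eA. C3, Cxcl10 and Bcl3 were the 3 genes with H3K27ac at both astrocyte stages and no aNPC peak, which held for 3.24% of all genes. The median gene of the 10 had 0.74 H3K27ac peaks per 10 kb in aNPC, 1.33 in eA and 1.23 in lA, where the median over all genes was 0.388, 0.463 and 0.453. For H3K4me1 the medians were 1.45, 2.01 and 2.53 per 10 kb against 0.89, 1.04 and 1.1. The windows of the 10 genes were shorter, with a median of 25.4 kb against 35.4 kb over all genes. Per window the contrast was smaller, with medians of 2.5, 3 and 4 H3K27ac peaks against 2, 2 and 2. For H3K4me1 they were 4.5, 6.5 and 7 against 4, 5 and 5. Peaks at the promoters of neighbouring genes are included in all these counts.

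Lcn2 encodes lipocalin 2, a secreted protein that binds bacterial siderophores and is a widely used marker of reactive astrocytes. No H3K27ac peak touched its promoter in aNPC. The eA peak nearest before the start site, 349 bp wide and highest 275 bp upstream, reached a −log10 q of 5.86, higher than 30.5% of that list, and a 175 bp peak lay 285 bp into the gene. By lA a single peak of 1487 bp spanned the start site, with its summit 344 bp into the gene, in an intron, and a −log10 q of 20.2, higher than 80.3% of the list. A further lA peak of 440 bp had its summit 1130 bp upstream. H3K4me1 followed the same stages, with no promoter peak in aNPC, a 756 bp peak in eA with its summit 12 bp past the start site and a 1246 bp peak in lA. Lcn2 was thus the only 1 of the 3 genes with new promoter H3K27ac that had no promoter H3K4me1 in aNPC. At Bcl3 the promoter H3K4me1 of aNPC lay apart from the site with new H3K27ac. The strongest H3K27ac peak of the window at each stage, about 7917 to 7940 bp upstream with −log10 q between 87.5 and 231, lay at the promoter of the neighbouring gene Ptges2.

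Serpina3n encodes a secreted serine protease inhibitor that marks reactive astrocytes. Its aNPC H3K27ac peaks were both downstream of the gene, 8529 and 15690 bp from the start site, and neither overlapped an H3K27ac peak in eA or lA, although H3K4me1 peaks lay there at both stages. At the promoter, eA peaks had summits 453 bp upstream and 144 bp downstream, with −log10 q of 7.53 and 7.56, and lA peaks had summits 405 bp upstream and 196 bp downstream, with 22.6 and 14.7. These lA peaks exceeded 82.9% and 71.2% of their list, and the eA peaks 40.4% and 40.5% of theirs. Another peak in the first part of the gene, 679 bp in at eA and 838 bp in at lA, completed a cluster of 3. In aNPC a single H3K4me1 peak of 1105 bp with a −log10 q of 20 spanned the start site and most of the first 2 peaks of the cluster, reached the edge of the third in eA and lay outside the third in lA. The NF-κB match of the printed promoter, 192 to 183 bases before the start site, lay inside the upstream eA H3K27ac peak and in lA fell in the gap between the upstream and downstream peaks.

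C3 encodes complement component 3, the central protein of the complement cascade and a marker of one reactive astrocyte state. It had no H3K27ac peak within 10 kb in aNPC and none at its promoter at any stage. In eA, peaks of 1394 and 567 bp with summits 4033 and 2688 bp upstream had −log10 q of 36.7 and 25.9. In lA, peaks of 1235 and 1219 bp lay 4071 and 2514 bp upstream with −log10 q of 18.9 and 33.9, and a weak one of 225 bp lay 4807 bp upstream. The last of the strong lA peaks exceeded 90.6% of its list. H3K4me1 was present here in aNPC, in peaks with summits 3437 and 2916 bp upstream and −log10 q of 29 and 17.1. The only promoter peaks of C3 were H3K4me1 peaks in lA with −log10 q of 3.37 and 3.42, higher than 4.65% and 4.86% of the list, and they dropped out when peaks with a −log10 q under 5 were removed.

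**Figure D3:**
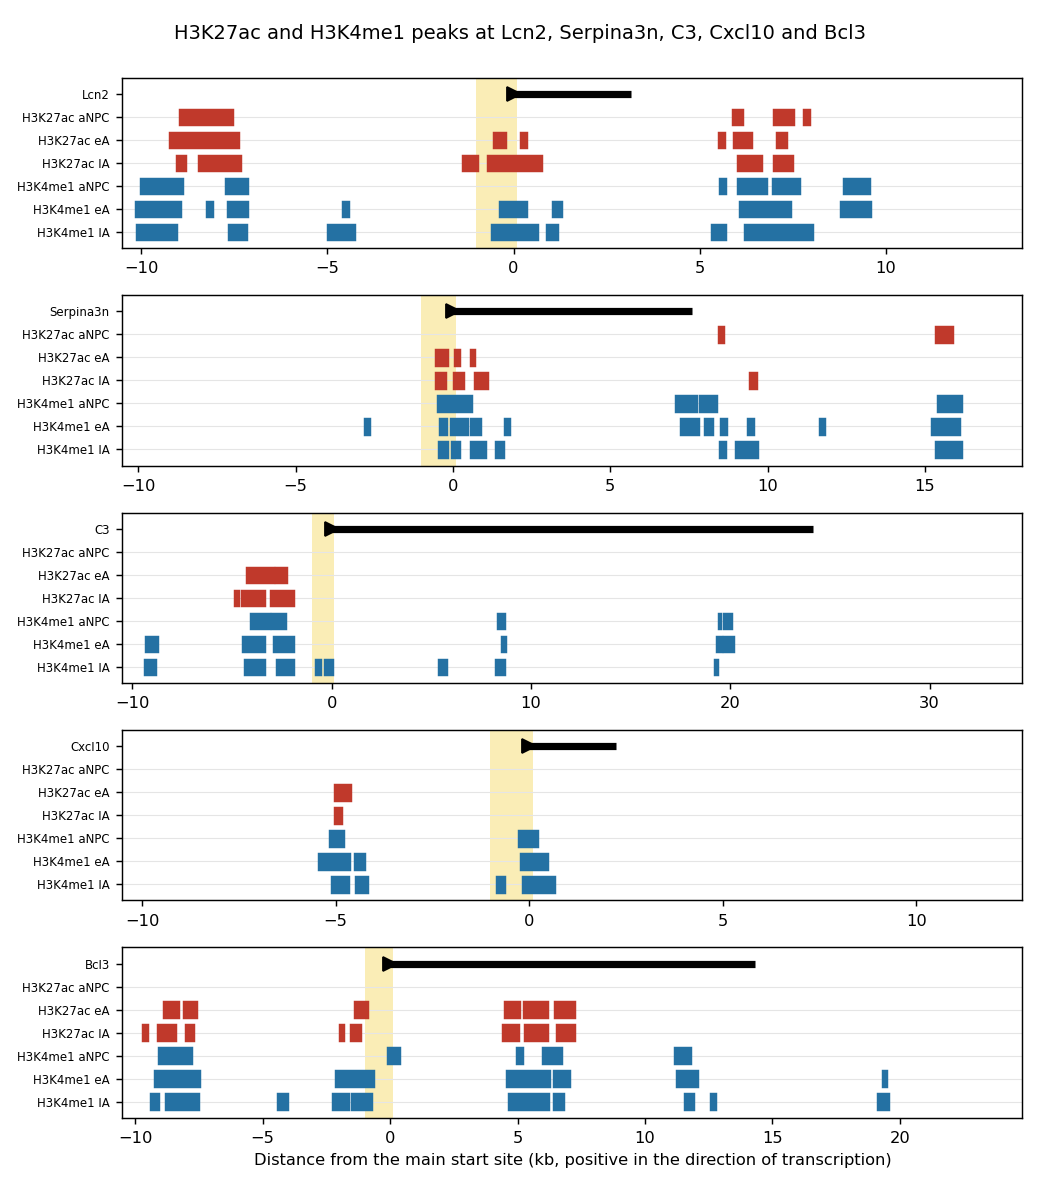
Peaks along Lcn2, Serpina3n, C3, Cxcl10 and Bcl3, plotted by distance (kb) from the main start site, with H3K27ac in red, H3K4me1 in blue, the gene as a black bar and the main promoter shaded yellow. Red boxes are missing from the aNPC row of C3, Cxcl10 and Bcl3 and from the aNPC promoter of Lcn2 and Serpina3n, and blue boxes fill the aNPC row at most of the later red positions.

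The 3 chemokines differed from one another. Ccl2, which attracts monocytes, carried promoter H3K27ac in aNPC, 360 bp upstream at a −log10 q of 8, and in eA, 411 bp upstream at 6.95, and had no such peak in lA. A distal peak lay 2870, 2536 and 2778 bp upstream in aNPC, eA and lA, and its −log10 q was 6.46, 4.63 and 13.3. H3K4me1 covered both places in aNPC and eA. In lA the H3K4me1 peak nearest before the start site was also missing, and a 193 bp peak 150 bp into the gene was the one that touched the promoter. The overlapping NF-κB and STAT matches of the printed Ccl2 promoter lay between the upstream peaks and the start site, under no peak of any list. An eA peak 2109 bp upstream, with a −log10 q of 5.19, had no H3K27ac counterpart at the other stages and overlapped H3K4me1 peaks at all 3. Most of the remaining peaks of the Ccl2 window lay at the promoters of Gm17268 and of Ccl7, a neighbouring chemokine gene of the same cluster.

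Cxcl1, which attracts neutrophils, had no promoter peak in any of the 6 lists, as was so for 34.1% of all genes. All its peaks lay at a distance. The upstream H3K27ac peak of aNPC, 5945 bp away, was 1500 bp wide and reached a −log10 q of 99.3, higher than 93.1% of the list. At this place eA and lA each had 2 narrower peaks, of which the stronger, 5924 and 5863 bp upstream, exceeded 72.7% and 73.9% of their lists. Downstream, the aNPC peak 9459 bp from the start site exceeded 89.4% of its list, and the peaks there in eA and lA exceeded 37.5% and 64.5%. H3K4me1 peaks covered both elements at every stage, with 2, 3 and 4 H3K4me1 peaks in the window.

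Cxcl10, an interferon-induced chemokine that attracts T cells, had a single H3K27ac site. It lay 4919 bp upstream in eA with a −log10 q of 15.4 and 4917 bp upstream in lA with 3.86, higher than 63.5% and 9.95% of the lists, and it had no aNPC peak. H3K4me1 covered the same element in aNPC, in a peak of 406 bp with a −log10 q of 13. At the start site H3K4me1 peaks lay 28, 67 and 92 bp into the gene in aNPC, eA and lA, with −log10 q of 21.8, 10.9 and 14.1, and no H3K27ac peak overlapped them. The NF-κB and AP-1 matches of the Cxcl10 promoter printed above lay under H3K4me1 peaks at every stage, the ISRE match under those of aNPC and eA, and none under H3K27ac.

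The adhesion molecules Icam1 and Vcam1, which bind leukocyte integrins, had different promoters. Icam1 had H3K4me1 peaks with summits 546 bp upstream in aNPC and 543 bp upstream in eA, none in lA, and no promoter H3K27ac. Its H3K27ac peaks lay 15302 to 17220 bp past the start site, most of them at the promoter of Icam5, a relative encoded just downstream. Vcam1 had promoter peaks of both marks in all 6 lists, with H3K27ac summits 223, 328 and 301 bp into the gene and −log10 q of 8.87, 20 and 11.3. The aNPC peak began just past the main promoter and counted through the other of its 2 annotated start sites. An intronic Vcam1 element 15916 bp past the start site carried the strongest H3K27ac of its window, with peaks of 2001 bp in aNPC, 461 and 1371 bp in eA and 2192 bp in lA. The lA peak there exceeded 95.3% of its list, and the stronger eA and the aNPC peaks 87.6% and 82.3%. A downstream element 24457 bp from the start site also had H3K27ac at each stage, with −log10 q of 12.8, 30.3 and 4.46.

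**Figure D4:**
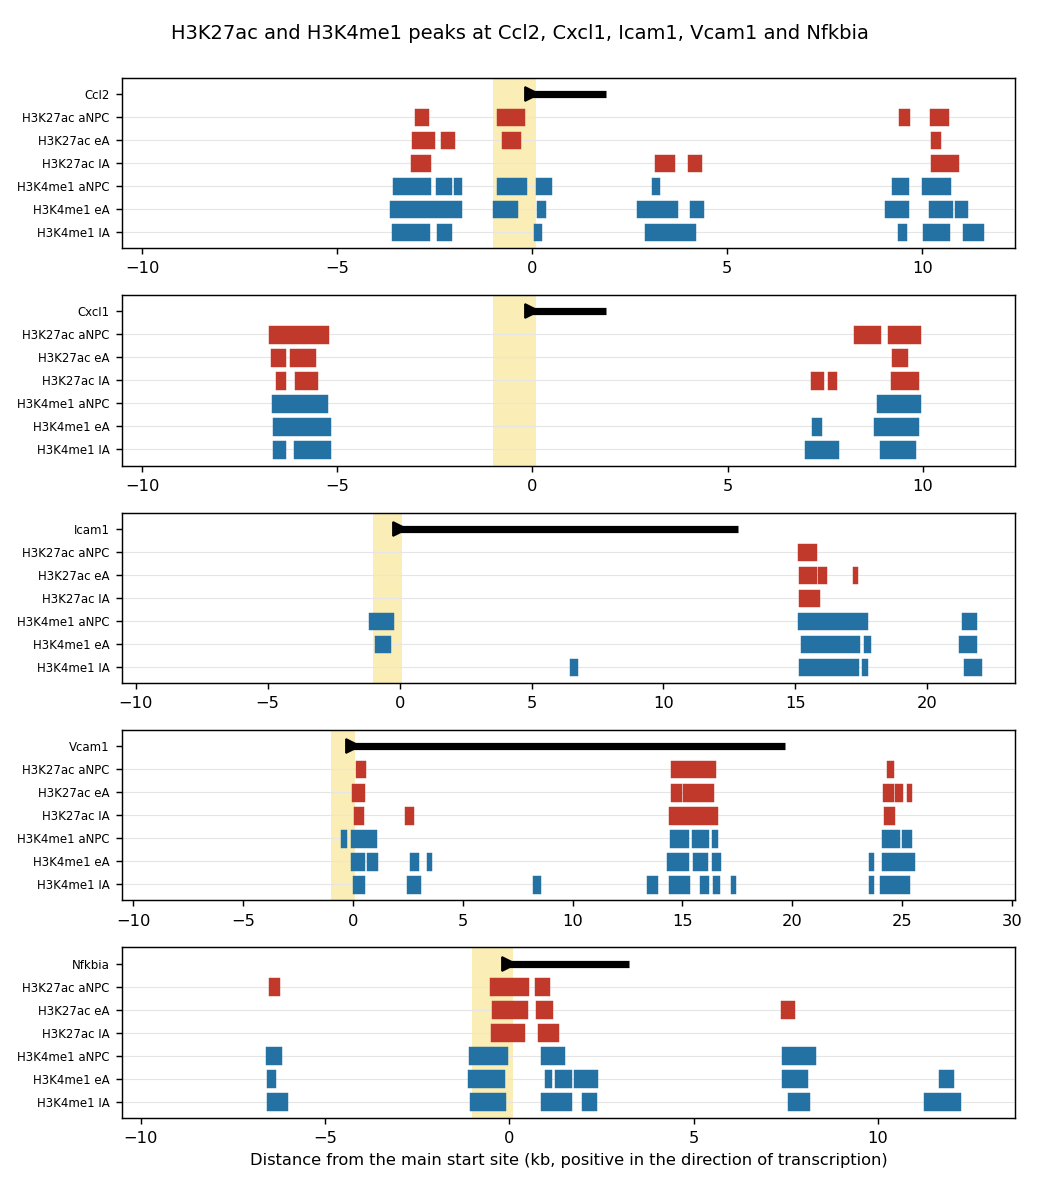
Peaks along Ccl2, Cxcl1, Icam1, Vcam1 and Nfkbia, plotted by distance (kb) from the main start site with the colours of the previous map. Nfkbia and Vcam1 have boxes beside or over the start site in every row, and the shaded promoter of Cxcl1 is empty throughout.

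Nfkbia encodes IκBα, the inhibitor that NF-κB itself induces. Its start site lay in a strong H3K27ac peak at all stages, of 1036, 931 and 900 bp, with −log10 q of 213, 171 and 44.4, which exceeded 98.6%, 99% and 94.4% of the lists. The summits were 235, 212 and 198 bp into the gene, in an exon, so the promoter was reached by the peak's flank. A second H3K27ac peak lay 878, 975 and 990 bp into the gene at the 3 stages. The NF-κB match before Nfkbia was covered by the H3K27ac peak at every stage and by no H3K4me1 peak. H3K4me1 summits lay on both sides of the H3K27ac peak. Those of the promoter peaks were 373, 460 and 713 bp upstream, and the nearest inside the gene were 1220, 1089 and 1328 bp past the start site. The 2 remaining H3K27ac sites of Nfkbia were seen at 1 stage each, 6419 bp upstream in aNPC and 7490 bp downstream in eA.

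Bcl3, an atypical IκB protein that works in the nucleus with NF-κB subunits, had more sites with new H3K27ac than any other of the 10 genes. Its H3K27ac peaks numbered 0 (aNPC), 6 (eA) and 8 (lA) and formed 8 sites. An intronic cluster had summits 4844, 5991 and 6817 bp past the start site in eA, with −log10 q of 22.9, 26.7 and 29.2, and 4829, 5818 and 6759 bp past it in lA, with 12.8, 21.8 and 20.1. Upstream, peaks lay 8647 and 8008 bp away in eA and 8728 and 7932 bp away in lA. H3K4me1 was present in aNPC at both the upstream and the intronic clusters, at 5 of the 8 sites. The site that counted as promoter H3K27ac in eA had its summit 1246 bp upstream and touched the 1 kb limit with its edge, while the lA peak of the same site, 1326 bp upstream, stayed outside, so the promoter call of Bcl3 rests on the limit. Bcl3 has 4 annotated coding start sites, and some of its H3K4me1 promoter peaks, 11493 to 12000 bp past the main one, lay at an internal start site.

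Merging overlapping H3K27ac peaks of the 3 stages gave 48 sites in the 10 windows. Of these, 28 (58.3%) had a peak in eA or lA and none in aNPC, against 42.7% of the 88691 sites near all coding genes. Another 13 were present at all stages (27.1% against 30.2% of all sites), and 6 in aNPC alone (12.5% against 18.9% of all sites). Bcl3 gave 8 of the 28 gained sites, Serpina3n 4, and Lcn2, Ccl2 and Vcam1 3 each, of which 1 in the Lcn2 window lay at the promoter of 1110008P14Rik and 2 in the Ccl2 window at that of Gm17268. The remaining 7 were spread over C3 and Cxcl1 with 2 each and Cxcl10, Nfkbia and Icam1 with 1 each. Each gene thus had at least 1, but the share of all coding genes with one was not counted. The only one at Icam1 was a 144 bp eA peak with a −log10 q of 3.83, higher than 11.9% of its list.

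**Figure D5:**
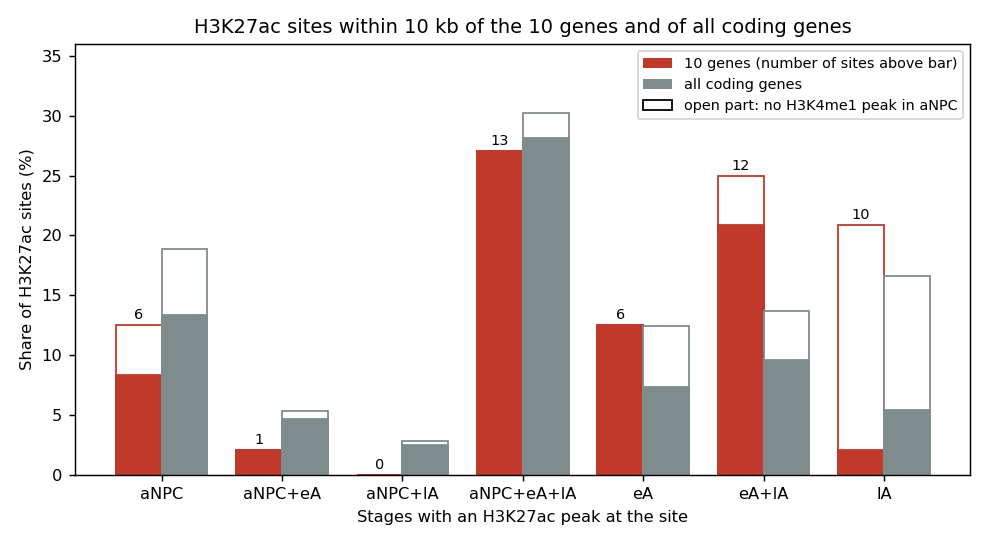
Share of H3K27ac sites (%) by the stages that had a peak, for the 48 sites of the 10 genes (red, number above the bar) and for the 88691 sites of all coding genes (grey), with the filled part holding an aNPC H3K4me1 peak. The bar for eA is filled at all 6 sites, that for eA and lA at 10 of 12, and that for lA alone at 1 of 10.

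H3K4me1 was already present in aNPC at 17 of the 28 gained sites (60.7%), against 52.4% of the gained sites of all genes. The split by the stage at which H3K27ac first appeared was uneven. Of the 18 sites with a first peak in eA, 16 (88.9%) had an aNPC H3K4me1 peak, against 65.0% near all genes. The exceptions were the sites over the Lcn2 start site and 1246 bp upstream of Bcl3. Of the 10 sites seen in lA alone, 1 had aNPC H3K4me1, against 32.6% of all such sites, and 6 (60.0%) had H3K4me1 in eA, against 62.8%. That 1 site lay at the Gm17268 promoter in the Ccl2 window. The peaks of the sites in lA alone had −log10 q from 2.35 (Serpina3n, 9419 bp downstream) to 8.49 (Lcn2, 1130 bp upstream), the latter higher than 50.7% of the list. The 6 sites in eA alone, all with aNPC H3K4me1, had −log10 q from 3.83 (Icam1, 17220 bp past the start site) to 10.3 (5545 bp past the Lcn2 start site, at the 1110008P14Rik promoter). With peaks under a −log10 q of 5 left out, 12 of 16 sites first seen in eA and 0 of 5 in lA alone had aNPC H3K4me1. With lists of equal length, 16 of 18 and 1 of 5 did, and with a 50 kb window 29 of 31 and 6 of 23 did. Where the H3K27ac summit had to lie inside the H3K4me1 peak, 12 of 18 and 0 of 10 did. The shares near all genes given above belong to the main rule, so the counts under these alternatives have no such share beside them. Sites of 1 gene are not independent. At promoters, H3K4me1 without H3K27ac was found in aNPC at 4 of 10 genes (Serpina3n, Cxcl10, Icam1 and Bcl3), against 11.8% of all genes, and of these Serpina3n had H3K27ac at the same place in eA. The eA H3K27ac peak that counted for Bcl3 arose elsewhere, at a site with no aNPC H3K4me1 peak.

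Elements away from promoters were read in the same way, over 300 bases around each summit. The 4 printed here are distal eA elements of C3, Cxcl10, Ccl2 and Bcl3 that held a STAT or an NF-κB match, again on the gene's strand with matches to the same 5 motifs in capitals.
C3 distal element, chr17:57370097-57370396, minus strand: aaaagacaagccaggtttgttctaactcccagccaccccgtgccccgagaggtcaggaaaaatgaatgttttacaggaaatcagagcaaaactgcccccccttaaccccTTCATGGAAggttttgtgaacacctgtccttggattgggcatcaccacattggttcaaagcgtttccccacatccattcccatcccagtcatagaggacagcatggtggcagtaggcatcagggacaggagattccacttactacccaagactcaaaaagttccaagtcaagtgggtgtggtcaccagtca
Cxcl10 distal element, chr5:92782677-92782976, minus strand: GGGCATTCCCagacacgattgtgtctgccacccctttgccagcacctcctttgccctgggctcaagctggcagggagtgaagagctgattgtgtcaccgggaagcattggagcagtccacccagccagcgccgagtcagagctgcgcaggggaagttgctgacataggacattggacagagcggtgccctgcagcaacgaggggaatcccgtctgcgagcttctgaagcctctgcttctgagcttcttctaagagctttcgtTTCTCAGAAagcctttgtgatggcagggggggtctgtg
Ccl2 distal element, chr11:81846387-81846686, plus strand: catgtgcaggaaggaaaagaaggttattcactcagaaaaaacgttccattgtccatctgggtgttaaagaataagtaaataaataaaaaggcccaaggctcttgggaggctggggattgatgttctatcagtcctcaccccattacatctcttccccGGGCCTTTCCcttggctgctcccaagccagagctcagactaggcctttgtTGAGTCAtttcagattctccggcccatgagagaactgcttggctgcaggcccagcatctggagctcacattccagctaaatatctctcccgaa
Bcl3 distal element, chr7:20401978-20402277, minus strand: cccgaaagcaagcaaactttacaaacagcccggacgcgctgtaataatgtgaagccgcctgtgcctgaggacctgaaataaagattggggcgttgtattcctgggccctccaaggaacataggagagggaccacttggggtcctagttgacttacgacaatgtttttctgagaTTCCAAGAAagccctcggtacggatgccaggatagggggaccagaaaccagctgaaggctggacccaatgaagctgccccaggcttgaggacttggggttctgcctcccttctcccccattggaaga

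Of the 24 distal eA H3K27ac windows of the 10 genes, 6 held a STAT match, against 10.0% of the 66983 distal eA windows of the whole list. They belonged to C3, Cxcl1, Cxcl10, Bcl3 and, with 2 windows, Vcam1. In lA, 4 of 27 windows did, against 9.92%, and in aNPC 0 of 12, against 9.57%. AP-1 and C/EBP matches were each in 5 of 24 eA windows, against 6825 and 8263 of the 66983, and RUNX matches in 3 of 24, against 20.6%. NF-κB matches were in 1 of 12 windows in aNPC, 3 of 24 in eA and 3 of 27 in lA, against 2.59%, 2.58% and 2.65%. One Nfkbia element gave a match at each stage. In the Bcl3 element the STAT match began 23 bases from the eA summit, and in the C3 element 41 bases from it. In the Cxcl10 element the NF-κB match stood at the edge of the eA window, outside the H3K27ac peaks themselves, and the lA window, whose summit lay 2 bases away, no longer held it. Windows could be wider than peaks, so other counted matches also lay outside the H3K27ac peaks of their list. In eA these included STAT matches at Cxcl1 and 25333 bp past the Vcam1 start site, and the AP-1 match of the printed Ccl2 element. In lA they included the STAT matches of C3, Cxcl1 and Cxcl10 and the NF-κB match of Serpina3n. No member window held an NFI match (TTGGC and GCCAA, 5 bases apart), which occurred in 0.0493% of all distal eA windows, and ISRE matches were in none of the distal windows, against 4.45% in eA.

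Other genes of these pathways were counted by promoter H3K27ac from lists set by function. Among 22 further NF-κB pathway genes, 20 had promoter H3K27ac at all 3 stages, and the receptors Il1r1 and Tlr2 had it in eA or lA and not in aNPC. Of 21 annotated interferon-response genes, 13 had it at all stages, 5 had none, and Ifit1, Irf7 and Psmb8 had it after aNPC. Of 20 other chemokine and cytokine genes, 12 had none at any stage, and Il6 and Lif had it after aNPC. Of 26 other reactive astrocyte genes, 6 had it after aNPC (Amigo2, C4b, Clcf1, Ggta1, Osmr and Ptgs2), 7 at all stages and 12 at none. Over all coding genes, 5.20% had new promoter H3K27ac and 45.2% had it at all stages. New promoter H3K27ac was also found at 3 of the 12 astrocyte markers (Apoe, Aqp4 and Gja1), at 3 of the 10 endothelial markers (Erg, Flt1 and Kdr) and at 0 of the 12 microglia markers, beside 3 of the 10 genes described here. Promoter H3K4me1 in aNPC was found at 55.4% of all coding genes, a share not limited to those with new promoter H3K27ac. It was present at 5 of the 6 reactive astrocyte genes with new promoter H3K27ac. In the interferon, astrocyte and endothelial lists it was present at 2 of 3 each, and in the NF-κB and cytokine lists at 2 of 2 each. Of the genes described here 2 of 3 had it, although at Bcl3 it lay apart from the new H3K27ac site. Osmr encodes a receptor of the LIF family of cytokines, and C4b a complement protein that acts before C3.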

How the data were processed

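H3K27ac and H3K4me1 ChIP-seq peaks of aNPC, eA and lA were used as deposited. The authors aligned the reads to mm9 with Bowtie, merged the 2 samples of each stage and mark, called peaks with MACS2 at its default settings and no input, and deposited for each peak its interval, summit and −log10 q-value. Read counts were not used here. Without an input, local copy number or open chromatin can add to a peak's strength. Peaks on the mitochondrial or unplaced sequences (4 or 5 a list) were left out. Genes came from GENCODE M1 on NCBIM37, which is mm9. The main start site was that of the transcript with the longest coding sequence. Peaks were assigned by an overlap of 1 bp or more to the gene body with 10 kb on either side, or to promoters, and overlapping H3K27ac peaks of the 3 stages were merged into sites. Scripts were run with Python 3.11.15, NumPy 2.4.6 and matplotlib 3.10.9, and were tested on simulated peaks. Other peaks, window sizes and overlap rules were tried as alternatives. The 10 genes, the gene lists and the motifs were chosen with earlier results of these data known. The other samples of the series, 51 in all with 12 merged here, were not analysed here. Genes of the related lists were named where promoter H3K27ac appeared after aNPC, and every one of the 10 genes was described.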

Additional observations from a re-analysis of the deposited data

How the results depend on the processing

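No paired analysis was possible because the authors merged the 2 samples of each list, and for the same reason no sample could be left out in turn. Of 84 values recomputed, 66 stayed within 1.5 times the main value, among them all 18 with lists of equal length, although the sites in lA alone there fell from 10 to 5, of which 1 had aNPC H3K4me1. With a 5 kb window, 12 H3K27ac peaks in aNPC and 2 sites in aNPC alone were counted. With 50 kb the counts were larger because more peaks enter, with 59, 83 and 90 H3K27ac peaks in aNPC, eA and lA, 138, 171 and 175 H3K4me1 peaks, 54 gained sites, 14 in aNPC alone and 38 at all stages. In that window 35 of the 54 gained sites had aNPC H3K4me1, 29 of 31 first seen in eA and 6 of 23 in lA alone. Among sites in lA alone, 0 of 5 had it with a −log10 q of at least 5, and 0 of 10 where the H3K27ac summit had to lie inside the H3K4me1 peak, a rule that left 12 of the 28 gained sites and 12 of the 18 first seen in eA with aNPC H3K4me1. This split by stage was added after the data were seen. Where the summit had to lie inside the promoter, H3K27ac was left at 2 genes in aNPC (without Nfkbia) and 4 in eA (without Nfkbia and Bcl3), so that Nfkbia no longer counted at all stages nor Bcl3 as new. By the same rule 2 genes had H3K27ac there in lA (Serpina3n and Vcam1) since the lA summits at Lcn2 and Nfkbia lay beyond its limits. H3K4me1 was left at 6 genes in aNPC (without Serpina3n), 7 in eA (without Bcl3) and 5 in lA (without Lcn2, Ccl2 and Bcl3). Serpina3n then no longer counted among the promoters with H3K4me1 and no H3K27ac in aNPC. At the edges of the 10 kb windows, 3 peaks crossed, the nearest peak inside one was 264 bp from it (Bcl3, H3K27ac in lA) and the nearest outside 20 bp (Nfkbia, H3K4me1 in lA). Depth behind the lists is unknown, so a missing peak may lie just under the caller's threshold.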

Other observations

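The combination of promoter peaks over the 6 lists placed each gene beside others of the related lists. Lcn2, with both marks at its promoter in eA and lA and neither in aNPC, had a combination shared by 34 of all coding genes (0.152%), of which 1, C4b, belonged to the 89 other genes of the related lists. The Serpina3n combination, H3K4me1 at every stage and H3K27ac in eA and lA, occurred at 305 genes (1.36%), among them Clcf1, Ggta1, Il1r1 and Tlr2. That of Bcl3 occurred at 452 genes (2.02%), with Amigo2, Lif, Osmr, Psmb8 and Ptgs2 among them. The Cxcl10 combination, H3K4me1 at each stage and no H3K27ac, occurred at 1209 genes (5.41%), with B3gnt5 and the interferon-induced Mx1 among them. The combination of Icam1 occurred at 221 genes (0.988%), among them Timp1 and Fbln5. No test was made of these counts, and likeness of pattern is a description of the lists.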
